A study of Homo sapiens with 12 samples.

Results

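The comparison described here is that of HCC1806 cells grown in the CDK2 inhibitor INX-315 with the same cells grown in DMSO, the solvent of the drug, in a pooled CRISPR knockout screen. Its members are 4 of the 12 libraries of the series, 2 from DMSO (DMSO 1 and DMSO 2) and 2 from INX-315 at 500 nM (INX-315 1 and INX-315 2), taken with all 71090 guides of their count table. The start library of the same screen, made at passage 0, served as the reference for change over time. HCC1806 is an established cell line of triple-negative breast cancer. All 5 libraries come from cells infected with the TKOv3 lentiviral library, which carries Cas9 guides against 18053 genes, most of them with 4 guides, and 142 non-targeting guides whose targets (LacZ, EGFP and luciferase) the human genome lacks. The labels place the 4 grown libraries at passage 8, while the design text of the series speaks of at least 5 passages and of a pool with at least 200-fold coverage. The other libraries of the series belong to a second HCC1806 screen with palbociclib, an inhibitor of CDK4 and CDK6, and to a screen in the pancreatic line MIA PaCa-2.

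CDK2 is the kinase that, bound to cyclin E and then to cyclin A, phosphorylates RB and many other proteins as cells enter and pass through S phase. CDK1 with cyclin A and the B-type cyclins takes cells through G2 into mitosis, and FOXM1 and the MuvB complex drive transcription of the genes needed there. In a pooled screen each cell carries 1 knockout, so a guide that becomes rarer in the drug than in the solvent marks a gene whose loss slows growth more in the drug, and a guide that becomes more frequent marks a gene whose loss slows it less or speeds it.

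The libraries held 24946956 to 31422461 counts. The DMSO libraries did not resemble each other. Across 71090 guides, which share library and depth and are not replicates, log2 CPM (counts scaled to the library total) of DMSO 1 correlated with DMSO 2 at 0.543 and with the INX-315 libraries at 0.540 and 0.542. DMSO 2 correlated with them at 0.918 and 0.919, and they with each other at 0.964. The DMSO library of the palbociclib screen, a separate culture of the same line, correlated with DMSO 2 at 0.735 and with DMSO 1 at 0.532. In DMSO 1 the median guide held 205 counts and 11906 guides fell under 30, against medians of 303 to 344 and 4368 to 4853 guides in the other 3. The 711 most abundant guides took 10.5% of the reads of DMSO 1 and 4.0% to 4.44% of the others. For 56.8% of guides the DMSO libraries differed more than 2-fold, and for 1.98% the INX-315 libraries did. Since 1 DMSO library stands apart, scores were computed over both pairs together and for each DMSO library by itself, as pair 1 (INX-315 1 against DMSO 1) and pair 2 (INX-315 2 against DMSO 2). A gene's pair scores, where 2 values stand in brackets, are those of pair 1 and then pair 2.

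The same contrast is seen in the change from the start, taken per gene as the median over its guides of the log2 ratio of CPM plus 0.5. Over 18048 genes its median was −0.83 in DMSO 1, −0.09 in DMSO 2 and −0.07 in both INX-315 libraries. Guides against cytosolic ribosomal proteins, which all dividing cells need, stood at a median of −4.22 and −3.42 in DMSO 1 and 2, and −3.07 and −3.08 in the respective INX-315 libraries. Those against the proteasome stood at −4.01, −3.24, −3.54 and −3.32. Loss of essential genes was thus recorded in every library, DMSO 1 included. Non-targeting guides, which cut no gene, stood at −0.38 in DMSO 1 and at 0.45 to 0.51 in the other 3. A plain ratio to DMSO 1 therefore lies above 0 for most guides, with a median log2 of 0.63 over all guides, 0.67 over guides against olfactory receptor genes and 0.85 over non-targeting guides. In pair 2 these medians were 0.02, 0.09 and 0.04.

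**Figure D1:**
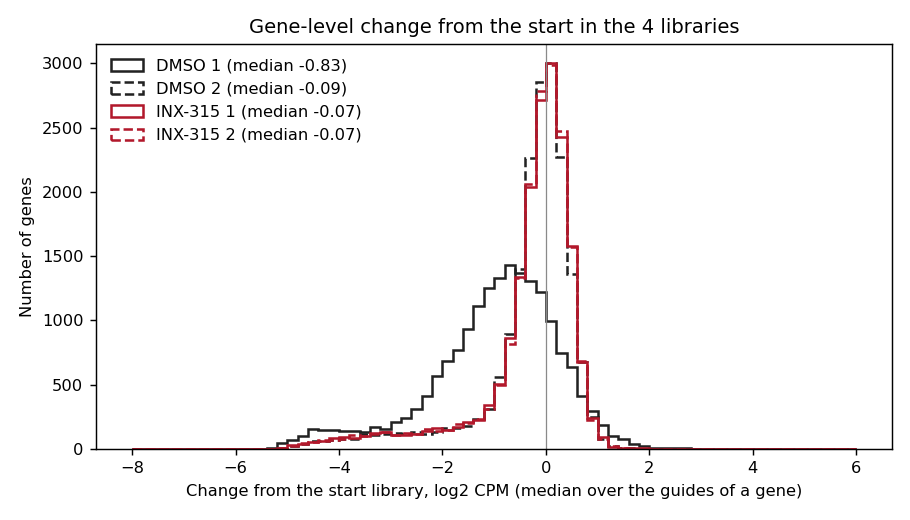
Distribution over 18048 genes of the change from the start library (x axis, log2 of CPM, median over a gene's guides; y axis, number of genes per bin) in DMSO 1 and 2 (black) and INX-315 1 and 2 (red). The curves of DMSO 2 and of both INX-315 libraries lie on each other, while that of DMSO 1 is broader and its median is −0.83.

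Genes were scored with DrugZ, which divides each guide's log2 ratio of INX-315 to DMSO by the spread of guides of like abundance and sums over a gene's guides. The sum, standardised over all genes, is the normZ. This takes out the mean over genes of the shift of pair 1 described above, and no more. A gene with a normZ under −2 is called depleted and one over 2 enriched. Over both pairs together 500 of 18048 genes (2.77%) were depleted and 246 (1.36%) enriched. Pair 1 alone gave 535 (2.96%) and 257 (1.42%), and pair 2 alone 502 (2.78%) and 249 (1.38%). In DMSO 1, 256 of the 257 enriched in pair 1 stood below the start (median −2.35, log2). Of the 535 depleted in pair 1, 141 did (median 0.67), and of all 18048 genes 14538 did (median −0.83). How far DMSO 1 sets the calls of pair 1 was not tested. The pairs share no library, and 71 genes (0.393%) were depleted and 9 (0.0499%) enriched in each of them. The depleted genes shared were 13.3% of those of pair 1 and 14.1% of those of pair 2, and the enriched genes shared were 3.50% and 3.61%. Across genes, which share guides and start pool between pairs, the scores of the pairs correlated at 0.188. Of the genes depleted in pair 1, 2 were enriched in pair 2, and 1 gene was enriched in pair 1 and depleted in pair 2.

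**Figure D2:**
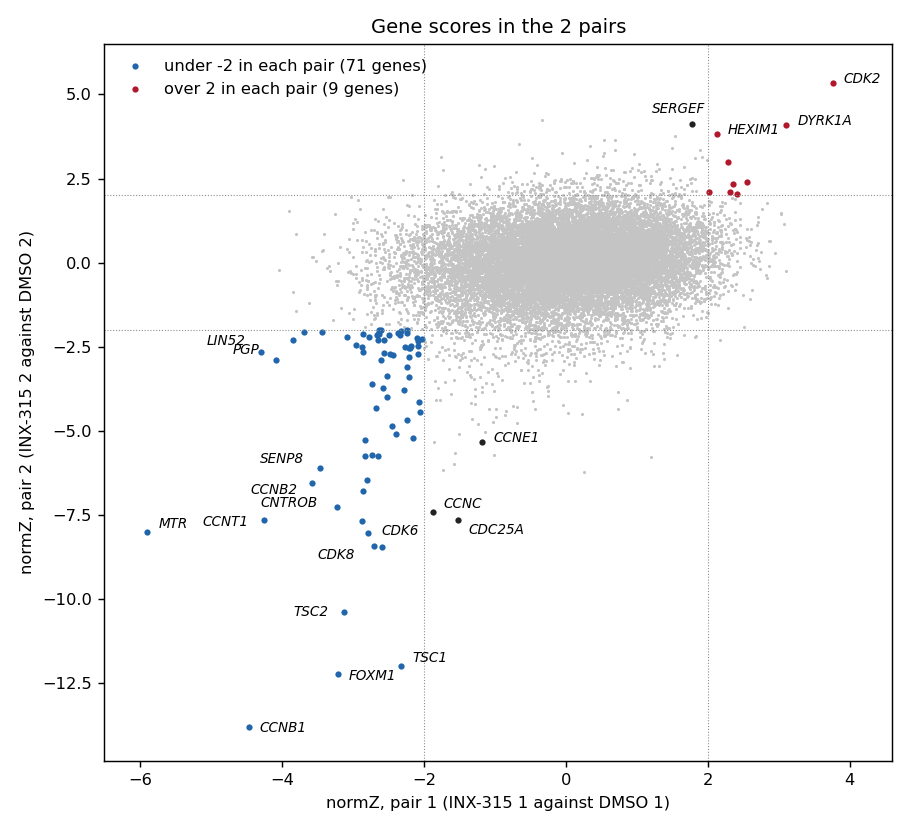
normZ of each gene in pair 1 (x axis) against pair 2 (y axis), with dotted lines at −2 and 2, the 71 genes under −2 in each pair in blue and the 9 over 2 in each pair in red. CCNB1, FOXM1, TSC1 and TSC2 lie lowest in pair 2, MTR lies lowest in pair 1, and CDK2 has the highest score in either pair.

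CDK2, the target of the drug, had the highest normZ of all genes, 5.63 over both pairs, and was also the highest in pair 1 (3.76) and in pair 2 (5.34). Its 4 guides lie on chromosome 12 between positions 56361670 and 56365344 in the coordinates of the guide library, a build not given in the sources used here. They held 248, 380, 468 and 649 counts at the start. In DMSO 1 the same guides, in that order, held 18, 26, 22 and 224 counts, and in DMSO 2 they held 227, 240, 328 and 746. In INX-315 1 they held 768, 590, 998 and 1685 counts and in INX-315 2 they held 940, 597, 962 and 1462. Each of the 4 guides was thus more abundant in both INX-315 libraries than in either DMSO library and than at the start, and the groups did not overlap. That pattern, both INX-315 libraries above both DMSO libraries in CPM, was shown by 27.1% of all guides, since DMSO 1 lies low for most of them, and the opposite pattern by 13.8%.

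The size of the CDK2 gain depended on the DMSO library. Its guides had fallen by 2.78 ± 0.97 on the log2 scale from the start in DMSO 1 (SD over 4 guides) and stood at −0.13 ± 0.38 in DMSO 2, against 1.42 ± 0.41 and 1.49 ± 0.51 in INX-315 1 and 2. The summed CPM of the gene was 15.8-fold higher in pair 1 and 2.95-fold in pair 2. At a DrugZ adjusted p under 0.05, which takes guides and not libraries as replicates, 2 genes (0.0111%) were enriched, CDK2 (0.00016) and DYRK1A (0.0332). With DMSO 2 as the only control CDK2 had an adjusted p of 0.000474, and with DMSO 1 as the only control 0.947. Among guides with at least 30 counts in each DMSO library, which leaves out 3 of its 4 guides, CDK2 had a normZ of 2.24 and ranked 108.

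DYRK1A, a kinase that phosphorylates LIN52 and thereby assembles the DREAM repressor complex, came second in both pairs together (normZ 4.48) and scored 3.11 in pair 1 and 4.09 in pair 2. Its guides held 9 to 271 and 401 to 895 counts in DMSO 1 and 2, and 422 to 2052 and 708 to 1769 in the respective INX-315 libraries. From the start they stood at −1.90 ± 1.12 in DMSO 1 and 0.25 ± 0.49 in DMSO 2, and at 1.28 ± 0.53 and 1.5 ± 0.3 with INX-315 (log2, SD over 4 guides). All 4 guides were higher in both INX-315 libraries than in both DMSO libraries, as were 27.1% of all guides. The adjusted p of DYRK1A was 0.155 with DMSO 2 alone and 0.947 with DMSO 1 alone, while its normZ stayed over 2 with either. Of the other 7 scored genes of the DYRK list, which holds related kinases and the adaptor DCAF7, none passed the threshold over both pairs, and DYRK2 did in pair 2 (2.25).

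The other 7 genes enriched in each pair had no adjusted p under 0.05. HEXIM1, which holds the transcription kinase CDK9 inactive, scored 2.12 in pair 1 and 3.82 in pair 2. Its guides held 0 to 307 and 169 to 320 counts in DMSO 1 and 2, and 345 to 671 and 316 to 803 in the respective INX-315 libraries. Its summed CPM was 72.3 at the start and 81.7 and 80.6 with the drug, with a median guide change of 0.21 and 0.16 (log2). CELF1, an RNA-binding protein of splicing and mRNA decay, had 30 to 103 and 158 to 269 counts in DMSO 1 and 2 and 225 to 578 with INX-315, against 475 to 857 at the start. CELF1 scored 2.28 and 3.0 in pairs 1 and 2. Its guides stood at medians of −0.09 and −0.21 (log2) from the start with INX-315.

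PDHB, a subunit of the pyruvate dehydrogenase that feeds the citric acid cycle, scored 2.55 in pair 1 and 2.40 in pair 2 and differed from these in its course. Its summed CPM was 55.8 at the start, 40.5 in DMSO 1 and 114 in DMSO 2, and 168 and 198 in INX-315 1 and 2. PPP2R2A, the B55α subunit that directs the phosphatase PP2A to CDK substrates, scored 2.36 and 2.34. Of its 4 guides, 3 were higher in both INX-315 libraries than in both DMSO libraries, as were 27.1% of all guides. FCGR2A (2.41 and 2.04) and FCRL6 (2.31 and 2.11), receptors of immune cells, and RASGRF2 (2.01 and 2.10), an exchange factor of RAS, completed the group. FCGR2A and FCRL6 guides had summed CPM of 1.53 and 6.34 in DMSO 1 and of 33.1 and 36.0 in DMSO 2, against 36.8 to 43.5 and 63.7 to 76.4 with INX-315. In pair 2 these 2 genes differed by 1.31-fold and 2.12-fold.

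**Figure D3:**
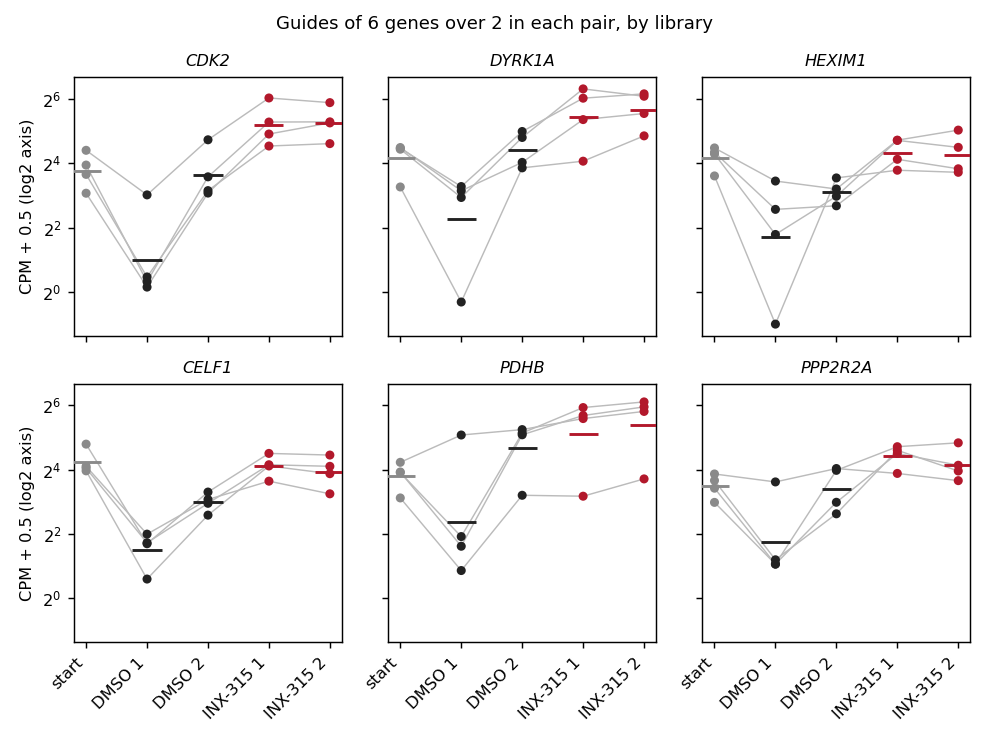
CPM plus 0.5 (y axis, log2 scale) of each guide of CDK2, DYRK1A, HEXIM1, CELF1, PDHB and PPP2R2A in the start library (gray), DMSO 1 and 2 (black) and INX-315 1 and 2 (red), with a line for each guide and a dash at the mean of the log2 values. DMSO 1 is the lowest library for each of the 6 genes. The red dashes of CDK2, DYRK1A, PDHB and PPP2R2A lie above the start, those of HEXIM1 slightly so (by 0.16 and 0.09, log2), and those of CELF1 below it.

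Genes around these formed small groups. All gene lists were written with earlier results of these data known, so no list share given here is independent evidence. Of 15 scored genes of PP2A and its methylation 2 were enriched and none depleted over both pairs, PPP2R2A and LCMT1 (2.58, with 1.5 and 2.79 in the pairs), which methylates the catalytic subunit and so favours binding of B55. The enriched share was 13.3%, beside 1.36% of all genes. The list's median normZ was 1.04, beside 0.04 over all genes, 0.40 in pair 1 and 0.55 in pair 2. LCMT1 guides were far below the start in every library, at medians of −3.85 and −2.90 in DMSO 1 and 2, and −1.46 and −1.23 in the respective INX-315 libraries. Of 15 genes of ubiquitin ligases that act on cyclins, FBXW7 (3.09), which marks cyclin E for degradation, and AMBRA1 (2.5), which marks D-type cyclins, were enriched, and SKP2 (−2.65), which marks the CDK inhibitor p27, was depleted. FBXW7 scored 1.99 and 3.05 in pairs 1 and 2, AMBRA1 1.71 and 2.31, and SKP2 −1.04 and −3.61. In summed CPM SKP2 was 1.14-fold higher with INX-315 in pair 1 and 1.92-fold lower in pair 2. Of this list 13.3% were thus enriched and 6.67% depleted, beside 1.36% and 2.77% of all genes.

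Among 13 genes that modify the wobble uridine of tRNA, ALKBH8 (3.17) and URM1 (2.15) were enriched over both pairs (15.4%, beside 1.36% of all genes). In pair 1 none of the 13 passed, and in pair 2 there were 5, ALKBH8 (3.34), URM1 (2.80), MOCS3 (2.39), TRMT112 (2.37) and CTU1 (2.24). The list had lost guides in every library, with a median change from the start of −3.95 and −3.44 in DMSO 1 and 2, and −3.20 and −2.87 in the respective INX-315 libraries. Augmin, which seeds branched microtubules in the spindle, showed the same course, with medians of −3.76, −3.30, −2.58 and −2.74, and with HAUS2 (2.20) as the 1 of 7 genes (14.3%) enriched over both pairs. This course was not particular to these lists. The cytosolic ribosome list ran alike (−4.22, −3.42, −3.07 and −3.08), while the proteasome list did not (−4.01, −3.24, −3.54 and −3.32). The further genes with the highest scores were SERGEF (3.48), INO80 (3.13), the ATPase of a chromatin remodelling complex, and LIN7C (3.09), a polarity protein. SERGEF and INO80 passed in pair 2 (4.13 and 3.78) and not in pair 1 (1.78 and 1.54), and LIN7C passed in pair 1 (2.84) and not in pair 2 (1.78).

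Depletion was deepest for cyclin B1, CCNB1, with a normZ of −10.51 over both pairs, −4.46 in pair 1 and −13.79 in pair 2. Its 4 guides, on chromosome 5 between positions 68463829 and 68473424, held 414, 591, 615 and 766 counts at the start. In DMSO 1, in that order, they held 1, 293, 352 and 978 counts, and in DMSO 2 they held 132, 610, 401 and 1614. With INX-315 they had nearly vanished, with 0, 22, 47 and 1 counts in INX-315 1 and 0, 3, 61 and 4 in INX-315 2. Of the 4 guides, 3 lay lower in both INX-315 libraries than in both DMSO libraries, as did 13.8% of all guides. The guide at 0 with INX-315 held 1 count in DMSO 1, which cannot be told from it, since a count of 0 allows up to 3 counts, or 0.115 and 0.120 CPM in the INX-315 libraries. The summed CPM of CCNB1 was 20.4-fold lower in pair 1 and 35.3-fold lower in pair 2.

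Genes that act with CCNB1 at mitotic entry were depleted as well. Cyclin B2, CCNB2, scored −6.11 (−3.58 in pair 1 and −6.55 in pair 2), and its guides held 69 to 1687 and 327 to 711 counts in DMSO 1 and 2, against 34 to 147 and 21 to 140 in INX-315 1 and 2. CDK1, the kinase of both cyclins and a gene all dividing cells need, scored −4.53 (−2.40 and −5.09) from very low counts. The CDK1 guides held 352 to 440 counts at the start, 0 to 90 and 2 to 126 in DMSO 1 and 2, and 0 or 1 and 0 to 4 in the respective INX-315 libraries. FOXM1, the transcription factor of G2 and mitosis genes, scored −8.75 (−3.21 and −12.23). Its guides held 119 to 759 and 513 to 1180 counts in DMSO 1 and 2, and 1 to 177 and 2 to 253 in the respective INX-315 libraries. All 4 were lower in both INX-315 libraries than in both DMSO libraries, as were 13.8% of all guides.

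The median normZ of 20 scored genes of CDK1 and mitotic entry was −1.37, beside 0.04 over all genes. Of these 20, 9 (45%) were depleted and none enriched over both pairs, beside 2.77% and 1.36% of all genes. In pair 1 there were 5 and in pair 2 there were 9, with 4 in each pair, namely CCNB1, FOXM1, CCNB2 and CDK1. CDC25B (−4.49), a phosphatase that activates CDK1, TPX2 (−3.25) and AURKA (−2.80), a spindle factor and the kinase it activates, passed in pair 2 (−6.16, −3.91 and −3.76) and not in pair 1 (−1.73, −1.62 and −1.28). CDC25B, TPX2 and AURKA were named after their values were seen. MASTL, the kinase that restrains PP2A-B55 in mitosis, passed in pair 1 (−2.36) and not in pair 2 (−1.18). The study also names CDK2, CCNB1, FOXM1 and CDK1 for this screen. This is a further reason why the direction of this list, and of the MuvB and G1/S lists that follow, is no independent evidence.

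The MuvB core, which with the pocket proteins represses cell cycle genes and with B-MYB and FOXM1 activates those of mitosis, was depleted in several parts. LIN37 scored −5.68 (−2.86 and −6.79) and LIN52, the subunit that DYRK1A phosphorylates, −4.66 (−4.30 and −2.65). LIN54, the DNA-binding subunit of MuvB, scored −2.24 (−0.26 and −3.97). In summed CPM LIN54 was 1.23-fold higher with INX-315 in pair 1 and 2.44-fold lower in pair 2. LIN52 guides held 0, 45, 175 and 2346 counts in DMSO 1, 0, 64, 101 and 101 in DMSO 2, 0, 9, 4 and 40 in INX-315 1 and 0, 11, 29 and 53 in INX-315 2. The score of LIN52 in pair 1 thus rests in large part on 1 guide, and 1 other guide is at 0 in all 4 libraries. In all, 5 of 13 genes (38.5%) of the DREAM and MuvB list were depleted and none enriched (median −1.31), with 3 in pair 1 and 5 in pair 2. Of all genes 2.77% were depleted. The pocket proteins RBL1 (−1.31) and RBL2 (0.85), the repressor E2F4 (1.01) and B-MYB, MYBL2 (−1.22), did not pass.

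**Figure D4:**
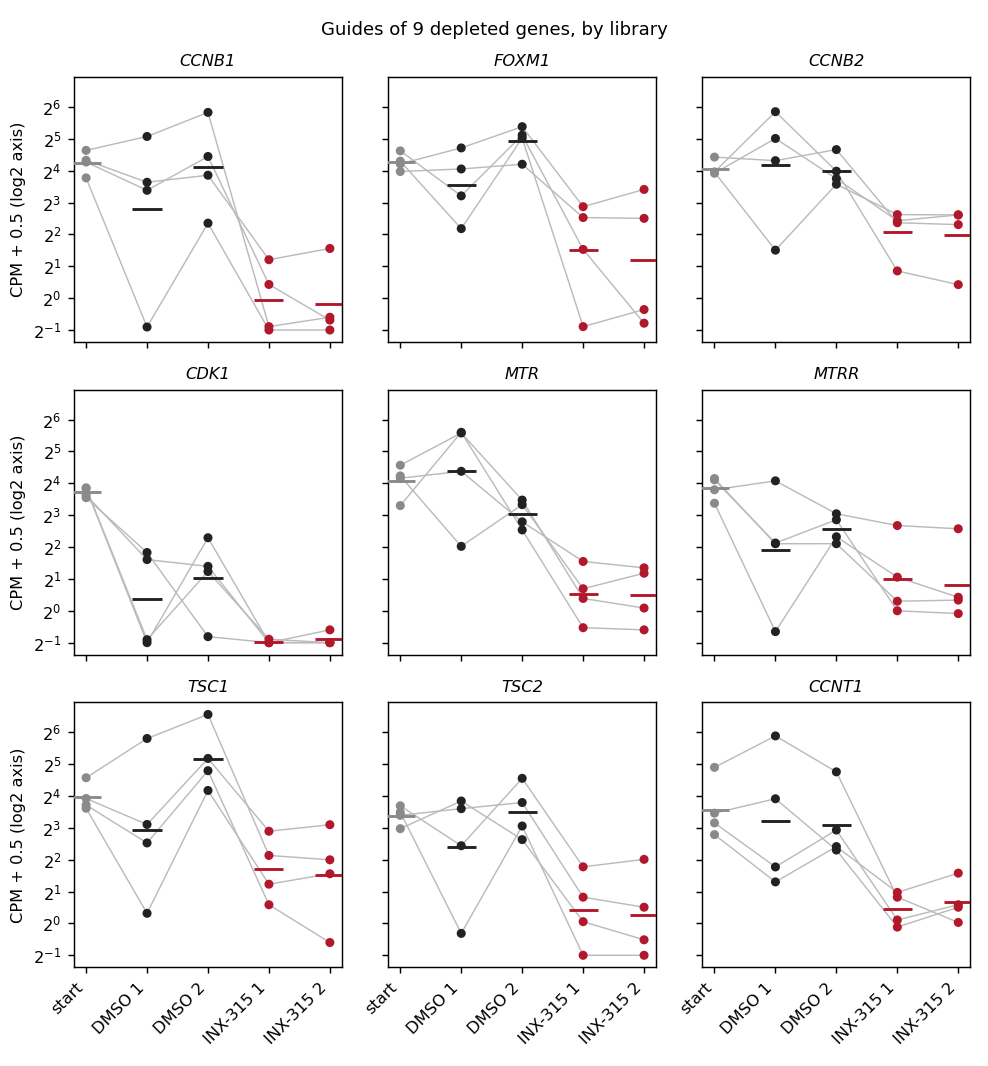
CPM plus 0.5 (y axis, log2 scale) of each guide of CCNB1, FOXM1, CCNB2, CDK1, MTR, MTRR, TSC1, TSC2 and CCNT1 in the start library (gray), DMSO 1 and 2 (black) and INX-315 1 and 2 (red), with a line for each guide and a dash at the mean of the log2 values. The red dashes lie below both black dashes in each of the 9 panels, and CDK1 is already low in both DMSO libraries.

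In the G1/S machinery CDK2 was enriched, and 9 of the 27 scored genes (33.3%, beside 2.77% of all genes) were depleted over both pairs. In pair 1 there were 3 and in pair 2 there were 10, and the list median was −0.66. CDK6, the G1 kinase that acts with D-type cyclins, scored −6.26 (−2.78 and −8.03). Its guides held 48 to 210 and 113 to 528 counts in DMSO 1 and 2 and 9 to 50 with INX-315. CDK4, the close relative of CDK6, scored −0.66 and did not pass. Of the D-type cyclins CCND3 (−2.52) passed, and CCND1 (−0.20) and CCND2 (−0.17) did not. CDC25A, the phosphatase that activates CDK2, scored −7.64 in pair 2 and −1.52 in pair 1, where its guides held 41 to 1111 counts in DMSO 1 and 74 to 220 in INX-315 1. E2F2 (−3.86) passed in each pair (−2.06 and −4.44).

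Of the cyclins that CDK2 binds, CCNE1 and CCNA2 were depleted over both pairs and in pair 2, and did not pass in pair 1. Cyclin E1, CCNE1, scored −3.64 (−1.18 and −5.33), and its 4 guides held 3 to 416 and 52 to 398 counts in DMSO 1 and 2, and 12 to 133 and 4 to 89 in the respective INX-315 libraries. Cyclin A2, CCNA2, scored −2.98 (−0.69 and −4.75). Its guides held 0 to 17 and 0 to 89 counts in DMSO 1 and 2, and 0 to 27 and 0 to 15 in the respective INX-315 libraries. The summed CPM of CCNA2 was 1.02 in DMSO 1 and 1.12 in INX-315 1, but 8.20 in DMSO 2 and 0.96 in INX-315 2. The groups thus overlapped, and the part of the low counts of DMSO 1 in this was not tested. Cyclin E2, CCNE2 (0.03), the CDK inhibitors CDKN1A (0.05) and CDKN1B (0.57), and RB1 (0.71) did not pass over both pairs. CCNE1, CCNA2 and CCND3 were named after their values were seen.

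Kinases of the transcription machinery and their cyclins were a further group. CDK8, the kinase of the Mediator complex, scored −6.41 (−2.71 and −8.43) and its cyclin CCNC −5.24 (−1.87 and −7.40). CDK8 guides held 128 to 534 and 235 to 1005 counts in DMSO 1 and 2, and 3 to 329 and 8 to 247 in the respective INX-315 libraries. CCNC guides held 4 to 613 and 33 to 504 counts in the DMSO libraries and 0 to 164 with INX-315. With MED13L (−2.12, which passed in neither pair), 3 of the 7 genes of the Mediator kinase module (42.9%) were depleted, beside 2.77% of all genes. The list median was −1.90, and all 7 had a normZ under 0, as had 8685 of the 18048 genes. CDK19 (−0.90), the paralog of CDK8, did not pass.

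CCNT1, the cyclin of the elongation kinase CDK9, scored −7.19 (−4.25 and −7.65), opposite in sign to HEXIM1, the inhibitor of the same kinase. Its guides held 58, 86, 429 and 1726 counts in DMSO 1 and 138, 204, 127 and 760 in DMSO 2, against 38, 15, 11 and 33 in INX-315 1 and 62, 25, 23 and 13 in INX-315 2. The summed CPM of CCNT1 was 20.9-fold lower in pair 1 and 8.70-fold lower in pair 2. CDK13, another kinase of elongation, scored −4.88 (−2.82 and −5.28) and AFF4, the scaffold of the super elongation complex, −2.22 (−1.51 and −2.08). CDK9 itself (−0.50), CCNT2 (−0.87) and CDK12 (−0.54) did not pass. Of 16 genes of this list 3 (18.75%) were depleted and 1 (6.25%) enriched, beside 2.77% and 1.36% of all genes, with a median of −0.52.

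TSC1 and TSC2, which together form the brake on the growth kinase mTORC1, scored −7.93 and −7.74. In pair 1 TSC1 scored −2.32 and TSC2 −3.12, and in pair 2 they scored −11.98 and −10.39. TSC1 guides held 22 to 1631 and 502 to 2684 counts in DMSO 1 and 2, and 26 to 180 and 4 to 201 in the respective INX-315 libraries. TSC2 guides held 9 to 408 and 163 to 658 counts in the DMSO libraries and 0 to 88 with INX-315. All 4 TSC2 guides and 3 of 4 TSC1 guides lay lower in both INX-315 libraries than in both DMSO libraries, as did 13.8% of all guides. Relative to the start, TSC1 guides were at −1.02 ± 1.86 in DMSO 1 and 1.22 ± 0.59 in DMSO 2, and at −2.24 ± 0.88 and −2.44 ± 1.45 with INX-315 (log2, SD over 4 guides).

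Of 12 scored inhibitors of mTORC1 TSC1 and TSC2 alone passed over both pairs, and the third partner of the TSC complex, TBC1D7 (0.44), and the GATOR1 subunits NPRL2 (−0.93) and DEPDC5 (−0.30) did not. Of 20 genes of mTORC1 and its activators PDPK1 (−2.07, with −2.35 and −0.51 in the pairs) was depleted and none enriched, and MTOR (0.88), RPTOR (−1.89) and RHEB (−1.64) did not pass. Depleted were thus 16.7% of the list of inhibitors and 5% of the list of mTORC1 and its activators, beside 2.77% of all genes.

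MTR, methionine synthase, scored −8.62 and was the lowest gene of pair 1 (−5.89), with −7.99 in pair 2. The guides lie on chromosome 1 between positions 236966829 and 236976089, and held 294, 546, 575 and 729 counts at the start. They held 1416, 598, 105 and 1395 counts in DMSO 1 and 152, 184, 274 and 304 in DMSO 2. In INX-315 1 they held 5, 63, 29 and 21 counts and in INX-315 2 they held 4, 51, 44 and 14. All 4 guides fell below both DMSO libraries, as did 13.8% of all guides. The summed CPM of MTR was 26.2-fold lower in pair 1 and 7.04-fold lower in pair 2. MTRR, the reductase that reactivates MTR, scored −4.17 (−1.86 and −5.34), and its guides held 4 to 483 and 109 to 222 counts in DMSO 1 and 2 and 11 to 153 with INX-315. MMACHC (−2.18, with −1.03 and −2.72 in the pairs), which processes the cobalamin cofactor, and FPGS (−2.03, with −1.33 and −1.97), which retains folate in cells, made up with them the 4 of 21 genes of the methionine cycle, cobalamin and folate that were depleted, with none enriched and a median of −0.98. Depleted were thus 19.0% of the list, beside 2.77% of all genes. MTR was the only gene of the 21 that passed both in pair 1 and in pair 2. The methionine adenosyltransferase MAT2A (−0.02) and the thymidylate synthase TYMS (0.71) did not pass.

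At the centrosome, PCM1, the scaffold of centriolar satellites, scored −6.33 (−2.59 and −8.45), and CNTROB, a protein of the daughter centriole, −6.21 (−3.23 and −7.27). PCM1 guides held 0 to 718 and 87 to 712 counts in DMSO 1 and 2, and 3 to 126 and 0 to 167 in the respective INX-315 libraries. The centriole proteins POC1B (−5.47), POC1A (−4.34) and CEP120 (−3.31) passed in each pair as well, so that 4 of 23 genes of the centriole and satellite list were depleted, the same number in pair 1, in pair 2 and in both. These are 17.4% of the list, while of all genes 2.77% were depleted over both pairs and 0.393% in each pair. The median of the list was −0.13, and PLK4 (−0.59), STIL (−0.42), SASS6 (−0.01) and CENPJ (0.62), the duplication factors of centrioles, did not pass. CEP85 (2.03) was enriched over both pairs and passed in neither alone. CNTROB is not a member of that list.

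Of 26 genes of the APC/C, the ligase that ends mitosis, and of the spindle checkpoint, 5 (19.2%) were depleted over both pairs and 1 (3.85%) enriched. Of all genes 2.77% were depleted and 1.36% enriched. The list median was −0.84. FBXO5, which inhibits the APC/C during S and G2 phase, was the lowest at −4.22 (−2.67 and −4.33), and its guides held 4 to 429 and 0 to 140 counts in DMSO 1 and 2 and 0 to 28 with INX-315. BUB1B (−2.81) and MAD1L1 (−2.82), proteins of the spindle checkpoint, were depleted over both pairs. Both passed in pair 2 (−2.53 and −2.76) and not in pair 1 (−1.998 and −1.82), so FBXO5 was the 1 gene of the list that passed in each pair. The enriched gene was ANAPC16 (2.005). ANAPC15 (−2.60) rests on pair 1 (−3.21), since pair 2 gave 0.0012.

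Respiratory chain genes were shifted by smaller amounts per gene. Of 49 genes of complex I and its assembly 12 (24.5%) were depleted and none enriched over both pairs, beside 2.77% and 1.36% of all genes. Of the 49, 42 had a normZ under 0, as had 8685 of all 18048 genes, and the list median was −1.34. Pair 1 gave 5 and a median of −0.55, pair 2 gave 12 and −1.42, and 2 genes passed in each, the assembly factors NUBPL (−2.36 and −2.07) and NDUFAF6 (−2.08 and −2.48). The lowest subunit was NDUFB9 (−2.93, with −2.80 and −1.53 in the pairs), whose guides held 98 to 520 and 45 to 576 counts in DMSO 1 and 2 and 15 to 325 with INX-315. The median change of the list from the start was −0.93 and −0.24 in DMSO 1 and 2, and −0.90 and −0.72 in the respective INX-315 libraries, and −2.33 in the DMSO library of the palbociclib screen. DMSO 2 thus lay farther on this list from the DMSO library of the other screen than from either INX-315 library. Of 34 genes of complexes III, IV and V 4 (11.8%) were depleted and none enriched (median −0.89), among them COX4I1 (−2.75, with −1.34 and −3.34) and COX15 (−2.66, with −2.68 and −1.19), and none passed in each pair. Of 21 genes of iron-sulfur cluster assembly NFU1 (−3.20) alone passed over both pairs (4.76%), and it passed in each. IBA57 scored −2.30 in pair 1 and 2.45 in pair 2, and ISCU −2.55 and 0.33.

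In the lists that all dividing cells depend on, 1 gene each was depleted over both pairs and none enriched. These were RPLP1 (−2.68) of 70 cytosolic ribosome genes (1.43%), PSMC2 (−2.52) of 40 proteasome genes (2.5%), POLA1 (−2.63) of 31 replication genes (3.23%) and CHEK1 (−2.36) of 14 genes of the ATR checkpoint (7.14%), beside 2.77% of all genes. Their medians, 0.10, −0.29, −0.31 and −0.34, lay near that of all genes (0.04). CHEK1, RPLP1 and PSMC2 passed in pair 1 (−2.44, −2.92 and −2.09) and not in pair 2 (−0.83, −0.86 and −1.77), and POLA1 passed in pair 2 (−2.78) and not in pair 1 (−1.57). Of 339 genes of olfactory receptors, taken as genes without a role in this line, 2 were depleted, 9 were enriched and none passed in each pair. The depleted share was 0.59%, beside 2.77% of all genes. Pair 1 gave 10 depleted and 6 enriched receptors, and pair 2 gave 1 and 3. The enriched share of these receptors, 2.65%, was above the 1.36% of all genes, and OR10W1 (2.52, with 2.61 and 1.02 in the pairs) was the highest of them.

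**Figure D5:**
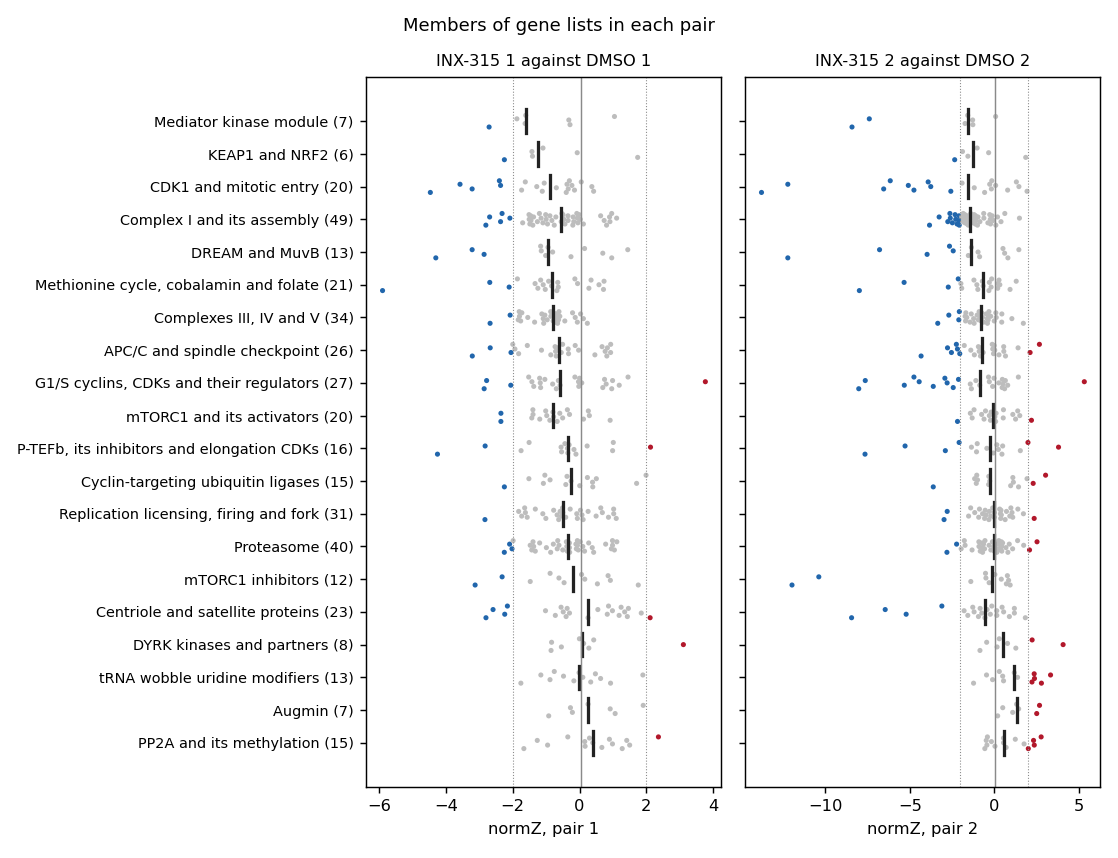
normZ of the scored members of 20 gene lists (rows, number scored in brackets) in pair 1 (left) and pair 2 (right), with members under −2 in blue and over 2 in red, a black bar at the median of each list and a gray line at the median of all genes. The horizontal scales differ between panels, since the lowest score is −5.89 in pair 1 and −13.79 in pair 2. The bars of the Mediator kinase module, mitotic entry, complex I and DREAM lists lie to the left of the gray line in both panels.

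Further genes among the 71 depleted in each pair were named after their values were seen, with no list or count behind their order here. SENP8, which removes NEDD8, scored −3.47 and −6.10 in pairs 1 and 2 and DCUN1D1, which helps to attach it, −2.65 and −2.14. A guide of SENP8 held 0 counts already at the start, and of its scored guides 2 fell and 1 rose in pair 1. Its highest guide held 1996 of the gene's 2591 counts in DMSO 1. The microtubule and centrosome proteins CEP57 (−2.57 and −3.73) and CEP41 (−2.21 and −2.54) stood beside the centriole genes above. Of the 4 CEP57 guides, 2 lay lower and 1 higher in both INX-315 libraries than in both DMSO libraries. NCAPH2 (−2.45 and −4.86), a condensin II subunit, and RAD51C (−2.08 and −2.71), a recombination factor, act on chromosomes. TADA2B (−2.88 and −7.67), of the SAGA complex, EHMT2 (−2.64 and −2.10), a histone methyltransferase, DDX5 (−2.44 and −2.75), an RNA helicase, and MED1 (−2.24 and −2.01), of the Mediator, act in transcription. Both INX-315 libraries lay below both DMSO libraries for 3 of 4 guides of TADA2B and for 2 of 4 of EHMT2, DDX5 and MED1 each. Of all guides 13.8% showed that pattern. EHMT2 guides had summed CPM of 73.6 at the start, 291 in DMSO 1 and 102 in DMSO 2. They were 7.05-fold lower in pair 1 and 1.74-fold lower in pair 2, and the part of DMSO 1 in this was not tested. PDSS2 (−2.87 and −2.52) and COQ2 (−2.60 and −2.01) make coenzyme Q, and COA6 (−2.86 and −2.67) assembles cytochrome oxidase. FAM122A (−2.73 and −5.70), an inhibitor of PP2A-B55, stood opposite in sign to PPP2R2A.

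Some of the 71 are genes known mainly from other tissues. DEFB119, a defensin, scored −3.85 and −2.29, KCNS1, a potassium channel subunit, −3.68 and −2.07, C1QB, a complement protein, −2.20 and −2.53, and SSTR1, a somatostatin receptor, −2.03 and −2.26. DEFB119 guides stood at a median of 2.57 (log2) above the start in DMSO 1 and KCNS1 guides at 1.85, but at 0.29 and −0.23 in DMSO 2. With INX-315 the medians of DEFB119 were −0.36 and −0.51 and those of KCNS1 −0.88 and −1.12. The part of DMSO 1 in these scores was not tested.

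Whether a depleted gene had lost guides since the start, or had only gained less than in DMSO, varied. Of the 500 genes depleted over both pairs 440 stood below the start in both INX-315 libraries and 28 above it in both, and 115 had stood above it in both DMSO libraries. The 71 depleted in each pair had median changes from the start of −0.23 and −0.25 in DMSO 1 and 2, and −1.83 and −1.73 in the respective INX-315 libraries, and 66 of them were below the start in both INX-315 libraries. PDCD10, an adaptor of the STRIPAK complex, was one of the exceptions. It scored −2.65 and −5.74, with guides at 1.95 and 1.78 (log2) above the start in DMSO 1 and 2, and still at 0.29 and 0.10 with INX-315. Of the 246 enriched genes 175 stood above the start in both INX-315 libraries, 55 below it in both, and 149 below it in both DMSO libraries. Of all 18048 genes 8700 stood below the start in both INX-315 libraries and 6744 above it in both. In both DMSO libraries 8844 of all genes stood below it and 1979 above it. The scores order guides by the drug and do not say whether cells without the gene grew better than other cells.

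With libraries instead of guides as the replicates no gene passed in edgeR. Its quasi-likelihood test on summed counts of 18018 genes, 2 libraries an arm, called 0 genes lower and 0 higher at a Benjamini-Hochberg adjusted p under 0.05. Without adjustment 352 genes (1.95%) were lower and 105 (0.583%) higher. Of 68377 guides tested singly none passed either, and 1324 (1.94%) and 267 (0.39%) did without adjustment. By DESeq2 29 genes were lower and 0 higher. Without DMSO 1 edgeR called 1530 genes lower and 1238 higher, and without DMSO 2 it called 6580 and 6707, where the spread is that of the INX-315 libraries alone. CCNB1 had the smallest edgeR p, with a log2 fold change of −4.89 (standard error 0.37, edgeR adjusted p = 0.745), and CDK2 had a log2 fold change of 2.26 (standard error 0.78, edgeR adjusted p = 0.745). In summed CPM both INX-315 libraries lay below both DMSO libraries for 2991 of 18048 genes (16.6%) and above both for 4724 (26.2%). By DrugZ 43 genes (0.238%) were depleted at an adjusted p under 0.05, 95 with DMSO 2 as the only control and 2 with DMSO 1 as the only control. These 2 were MTR (1.98e-05) and CCNB1 (0.0204). FOXM1 had an adjusted p of 0.246 there, and its normZ was −3.44.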

How the data were processed

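Guides were amplified by PCR from genomic DNA (the labels give total RNA as the molecule), sequenced, trimmed with Trim Galore 0.6.7 and counted with MAGeCK 5.9 per the labels. The deposited counts are whole reads per guide without molecular identifiers, so limits on a count of 0 cover counting error only. The authors' deposited normalized signal is the same counts times 1 factor per library, and was used as an alternative. Gene names were read from the guide names, since 109 guides have a date in the gene column. The symbols of all 77 genes of the naming rule are in RefSeq. Guide sequences were not used here. Some genes are not reported here and were left out of the lists.

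DrugZ was rewritten with numpy 2.4.6, scipy 1.17.1 and pandas 2.3.3 under Python 3.11.15: libraries scaled to 10000000 counts, a pseudocount of 5, and a window of 1000 guides in steps of 25. Guides at 0 in both libraries of a pair (1289 and 1313) were left out, and 5 genes were not scored. edgeR 4.0.16 (TMM, limma 3.58.1, R 4.3.3) and DESeq2 1.42.0 tested guides and gene sums. DrugZ, and edgeR on gene sums, were run on simulated data as well, while DESeq2 and edgeR on guides were not. Figures used matplotlib 3.10.9. The study calls the replicates biological, but neither it nor the labels say whether they came from separate infections or cultures, so edgeR and DESeq2 measure the spread between these libraries. DrugZ p-values take guides as replicates.

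Genes named are those the study names for this screen (CDK2, FOXM1, CCNB1 and CDK1), the 10 highest and 10 lowest scores among genes whose guides (3 or more) all moved in 1 direction, the 8 on each side with the largest weaker pair score among genes past the threshold in each pair, and for each list no more than 4 members past −2 or 2. Other genes named were chosen after their values were seen. The members, lists and rule were chosen with earlier results of these data known. Alternatives were a pseudocount of 1 or 20, at least 30 DMSO counts, the normalized counts, scaling on olfactory receptor guides, no replicate block, a normZ of 3, each library or pair left out and, for edgeR, DESeq2, other size factors, no filter and a replicate block.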

Additional observations from a re-analysis of the deposited data

How the results depend on the processing

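The call counts depend most on which DMSO library is used. At a DrugZ adjusted p under 0.05 leaving out a replicate pair or a library gave 2 to 95 depleted genes (43 with all libraries) and 0 to 2 enriched genes (2 with all libraries). The enriched count was also 1 with a pseudocount of 1, with the deposited normalized counts and with no replicate block, and 0 with at least 30 counts in each DMSO library. At a normZ of 3 there were 91 depleted and 14 enriched genes. Of the 77 named genes 33 lost their call without DMSO replicate 2, and without DMSO replicate 1 19 lost it with the sign kept and PDPK1 changed sign. Over the left-out replicates and libraries the normZ of ANAPC15 ran from −3.21 to 0.0012 and that of PDPK1 from −2.64 to 0.020, so each changed sign, as PDPK1 did with at least 30 DMSO counts (0.643).

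With edgeR leaving out a library gave 1 to 6580 lower and 0 to 6707 higher gene sums, and 0 to 23326 lower and 0 to 25380 higher guides, all the highest counts without DMSO replicate 2, where the lone library of an arm is assumed to vary like the other arm. DESeq2 gave 29 lower gene sums and 314 lower guides, the latter among the 3555 guides it gave an adjusted p. The numbers of the replicates do not pair the libraries: deviations of same-numbered libraries correlated at −0.007 over 71090 guides. A replicate block in edgeR gave 7 lower gene sums (CCNB1, CCNT1, MTR, TSC1, SENP8, FOXM1 and CCNB2) and 11 lower guides. For each list a spread was taken as the difference between its median normZ without replicate 1 and without replicate 2, over the square root of 2. The median moved by at least this spread for 13 of the lists without replicate 1 and for 15 without replicate 2. As the spread comes from the same 2 medians, these counts do not measure how stable the lists are. The cause of these differences was not tested. Depth limits the lowest counts, and in DMSO 1 a further fall of guides already under 30 counts was hardly measurable.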

Other observations

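Some groups outside the comparisons above were also scored. Of 6 scored genes of the KEAP1 and NRF2 list, 2 (33.3%) were depleted and 1 (16.7%) enriched over both pairs. Of all genes 2.77% were depleted and 1.36% enriched. The depleted genes were KEAP1 (−2.06), which marks the stress factor NRF2 for degradation, and NFE2L2 (−2.04), the gene of NRF2 itself. BACH1 (2.30), a repressor of NRF2 targets, was the enriched gene. None of the 3 passed in pair 1 (−1.42, −1.09 and 1.74), and of them NFE2L2 alone passed in pair 2 (−2.34). The partners of the RALGAP complex, which switches off RAL GTPases, moved in opposite directions, with RALGAPA1 at 2.5 and RALGAPB at −2.99. In pair 2 they stood at 2.32 and −4.34 and in pair 1 at 1.70 and −0.99. They were the only genes called over both pairs among the 8 of the RALGAP and RAL list. Its enriched and depleted shares were 12.5% each, beside 1.36% and 2.77% of all genes.

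Of 20 genes of the Hippo pathway, which restrains YAP and TAZ, SLMAP (2.13) and VGLL4 (2.31) were enriched and none depleted, with a list median of 0.57 over both pairs, 0.66 in pair 1 and −0.03 in pair 2. The enriched share was 10%, beside 1.36% of all genes. SLMAP passed in pair 2 (2.45) and not in pair 1 (1.13), and VGLL4 in pair 1 (2.36) and not in pair 2 (0.97). Of 76 genes of the mitochondrial ribosome 2 (2.63%, beside 2.77% of all genes) were depleted, MRPL37 (−2.08) and MRPL47 (−2.16), and none enriched. They scored −0.25 and −0.82 in pair 1 and −3.67 and −2.98 in pair 2. In summed CPM MRPL37 was 1.75-fold higher with INX-315 in pair 1 and 2.45-fold lower in pair 2. Of 21 genes of RAS, RAF and ERK and of 10 genes of p53 and its regulators none passed over both pairs. Of all genes 2.77% were depleted and 1.36% enriched, and for lists this small a count of 0 is near those shares.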
